A study of Homo sapiens with 2 samples.

Results

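The genes described here are 10 transcription factors that ERK signalling is known to switch on or modify: EGR1, the PEA3 factors ETV1, ETV4 and ETV5, the AP-1 subunits FOSL1, JUN and JUND, and KLF2, MYC and SNAI2. They were chosen by name from 13763 genes with a symbol on the array, and were chosen by their differences in this same comparison, so their values are a description and carry no test. All 10 were found, with 11 probe sets in all, since EGR1 has 2. The series measured S2-013 cells, a pancreatic cancer line. Both cultures had HOXB7 knocked down and then restored from a plasmid, so both carry the knockdown and the plasmid. One received a MEK inhibitor and the other did not, with 1 array each. Which inhibitor was used, at what dose and for how long, is not stated in the labels. By the series' design text, the arrays were meant to find factors and pathways under HOXB7 and MEK signalling.

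As background, MEK activates the kinase ERK, which enters the nucleus and phosphorylates ETS-type ternary complex factors bound beside serum response factor (SRF). This switches on immediate early genes such as EGR1 and FOS within minutes, without new protein synthesis. A second tier of factors, the PEA3 family and FOSL1 among them, follows. ERK also stabilises several of the proteins, FOSL1 and MYC included, which an RNA measurement does not see.

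The windows just upstream of EGR1, KLF2, JUN and JUND are shown because EGR1 and KLF2 read lower and JUN and JUND higher with the inhibitor. They are the 250 bases before the annotated start, from RefSeq on GRCh38.p14, 5′ to 3′ on the gene's strand. Of the 10 genes, 5 had an entry in that table: these 4 with 1 window each and ETV1 with 6, some of which overlap. Capitals in EGR1 (chr5:138465229-138465478, plus strand) mark CArG boxes, the sites SRF binds, and the core of the cAMP response element, TGACG or its reverse complement CGTCA. In KLF2 (chr19:16324576-16324825, plus strand) they mark an EGR site, GCGNGGGCG, and a MEF2 site. In JUN (chr1:58784048-58784297, minus strand) they mark the JUN/ATF site TGACATCA and a MEF2 site. In JUND (chr19:18281623-18281872, minus strand) they mark the full cAMP response element TGACGTCA and a further core.
EGR1: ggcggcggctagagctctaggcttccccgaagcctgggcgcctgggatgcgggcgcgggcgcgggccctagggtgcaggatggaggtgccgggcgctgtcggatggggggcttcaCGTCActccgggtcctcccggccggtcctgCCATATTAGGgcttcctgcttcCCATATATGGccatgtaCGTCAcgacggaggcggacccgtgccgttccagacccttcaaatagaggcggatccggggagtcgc
KLF2: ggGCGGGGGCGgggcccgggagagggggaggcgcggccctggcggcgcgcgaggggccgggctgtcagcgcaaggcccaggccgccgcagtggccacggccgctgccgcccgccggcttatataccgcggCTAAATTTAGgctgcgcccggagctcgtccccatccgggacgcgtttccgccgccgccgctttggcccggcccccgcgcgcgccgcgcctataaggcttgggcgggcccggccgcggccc
JUN: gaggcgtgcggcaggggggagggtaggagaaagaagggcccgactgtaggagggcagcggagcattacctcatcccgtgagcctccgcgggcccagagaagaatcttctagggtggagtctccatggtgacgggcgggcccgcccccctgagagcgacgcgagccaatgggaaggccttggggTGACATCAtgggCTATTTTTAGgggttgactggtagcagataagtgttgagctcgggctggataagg
JUND: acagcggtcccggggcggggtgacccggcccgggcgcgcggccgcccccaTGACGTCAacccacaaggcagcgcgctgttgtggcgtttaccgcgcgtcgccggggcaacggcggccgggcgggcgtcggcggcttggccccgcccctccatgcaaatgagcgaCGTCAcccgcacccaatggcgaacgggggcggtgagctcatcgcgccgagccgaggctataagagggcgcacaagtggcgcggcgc

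EGR1 held 2 CArG boxes, CCATATTAGG starting 105 bases and CCATATATGG starting 83 bases before the start. A CArG box was found in 1.16% of all 35116 upstream windows of this length in the table, and in none of the other windows of these genes. A MEF2 site, the binding site of a factor family that answers to the related kinase ERK5, was found in KLF2 and in JUN, and in 0.515% of all windows. Of these, KLF2 read lower and JUN higher with the inhibitor, and the part of the MEF2 site in either difference was not tested. The full cAMP response element was found only in JUND among these windows (1.65% of all), and TGACATCA only in JUN (2.37%). The core TGACG, which overlaps the full element, was in EGR1, JUN, JUND and 3 of the ETV1 windows, and in 21.2% of all. The EGR site was in EGR1 and KLF2 and in 8.41% of all windows. The AP-1 site TGANTCA was in no window of these genes and in 6.57% of all. The ETS core CCGGAA was in 3 ETV1 windows and in 14.5% of all, and the E-box CACGTG, which MYC binds, in 1 ETV1 window and 6.34% of all. GC boxes, GGGCGG, were in KLF2, JUN, JUND and ETV1 windows and are common (42.6%). Both strands were searched. A match is a run of letters and no evidence that a factor was bound in these cells.

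**Figure D1:**
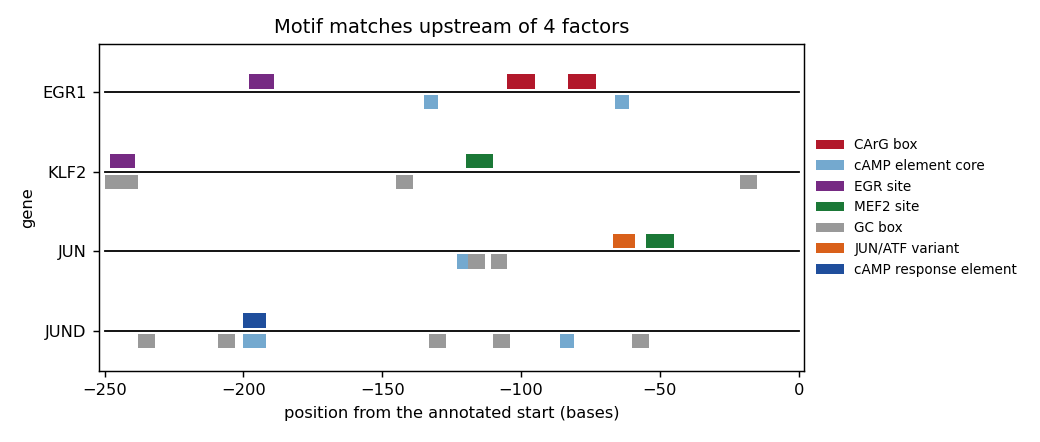
Positions of the motif matches in the 250 bases before the annotated start of EGR1, KLF2, JUN and JUND (x axis in bases from the start, 1 line per gene, coloured boxes for matches). EGR1 holds 2 CArG boxes, KLF2 and JUN a MEF2 site each, and JUND a full cAMP response element.

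Values below are the deposited log2 signals, and a difference is the value with the inhibitor minus the value without it. Each condition has 1 array, so no gene has a replicate error or a test. As a yardstick of probe error, differences from 443 pairs of probe sets of the same gene were compared: the median gap was 0.16, and 95% of gaps were at most 0.80. The pairs come from 145 genes, so they are not independent, and genes with identical copies among their probe sets were left out. The spread between cultures is not covered by it. A gene was counted when its higher value was at least 4.78, the median gene's mean signal, which left 7164 genes. Of these, 1.05% were at least 2-fold lower with the inhibitor, 0.628% at least 2-fold higher, and 46.1% were lower by any amount. Of the 10 factors, 6 were at least 2-fold lower and 1 at least 2-fold higher. These counts follow from how the genes were chosen. All 7 named markers of ductal epithelium were counted, with differences on both sides: CEACAM6 at -1.90, KRT18 at -0.29, KRT8 at -0.19, KRT19 at -0.07, EPCAM at 0.04, KRT7 at 0.35 and CLDN4 at 0.95. The other probe set of KRT18 differed by -0.66. EPCAM read 10.5 in both arrays, and KRT7 passed 4.78 only with the inhibitor. The 9 named markers of fibroblasts, endothelium, leukocytes and acinar or endocrine cells were below 4.78 in both arrays, except CD68. It read 8.95 without and 8.53 with the inhibitor.

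EGR1, a zinc finger factor of the immediate early response, had the largest loss of all genes counted by its brighter probe set. With probe sets averaged it differed by -2.06 and was at place 6 from the lowest, after MMP1, TNS4, STC1, EPHA7 and SPRY4. The brighter probe set (16989736) read 8.13 without the inhibitor and 5.19 with it, a difference of -2.94 or 7.67-fold lower. In a bulk RNA sample, fewer cells expressing a gene and less of its RNA per cell cannot be told apart. The signal left was 13.0% of that without the inhibitor. Of the 1688 genes whose mean signal lay within 0.5 of its own, itself included, EGR1 was the lowest, and the central 95% of their differences ran from -0.77 to 0.73. The second probe set (17000463) read 4.73 and 3.54, a difference of -1.19, with both values under 4.78. Both probe sets are therefore lower with the inhibitor, but by amounts that are far apart. Probe set numbers of this array run largely by chromosome and strand, judging by their genes. Of the named genes on the nearest numbers, 17 of 18 lie on the plus strand around the brighter probe set and 16 of 17 on the minus strand around the second. EGR1 is a plus-strand gene, and which RNA the second probe set reads was not tested.

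The relatives and partners of EGR1 were few. EGR3 (3.73 without and 4.34 with the inhibitor) and EGR4 (3.03 and 2.88) stayed below 4.78, as did WT1. NAB2, a corepressor that EGR1 induces and that in turn restrains it, read 5.67 and 4.63, a difference of -1.04, which ends in dim signal. It passed 4.78 only without the inhibitor, so it had to be lower. NAB1, the related corepressor, differed by -0.23. EGR2 is not analysed here.

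The PEA3 factors are ETS proteins known to drive invasion genes, and their 3 losses were alike in size. ETV4 read 6.30 without and 4.55 with the inhibitor, a difference of -1.75. ETV1 read 5.05 and 3.32 (-1.72). ETV5 read 5.61 and 4.06 (-1.55). In folds these are 3.36, 3.30 and 2.93, and differences this close are within the gaps seen between probe sets of the same gene. All 3 passed the limit of 4.78 only through the array without the inhibitor and lay under it with the inhibitor, so genes admitted in this way had to be lower and their folds end in dim signals. ETV5 was the lowest of 1506 genes of like mean signal and ETV1 of 123. Around ETV1, with a mean of 4.19, every gene compared passed 4.78 in 1 array only, so all had to differ. The factors were chosen by their differences, so these places are a description. Of 2129 genes around ETV4, 4 were as low or lower, ETV4 included.

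The other ETS genes counted had smaller differences, and the PEA3 factors had been chosen by theirs. Of 28 listed ETS genes, 23 were named on the array and 16 counted. The 13 other than the PEA3 factors had differences between -0.34 and 0.61 with a median of -0.03, against 0.03 over all genes counted. None was past 2-fold in either direction, where 1.05% of all genes counted were lower and 0.628% higher by that much. SPDEF, an epithelial ETS factor, read 5.25 and 4.91 (-0.34), and the repressor gene ETV3 6.47 and 6.20 (-0.27). ETV6, another repressor, differed by -0.19, and ERF, a repressor that ERK inactivates by phosphorylation, by -0.03. ETS1 and ETS2, whose proteins ERK phosphorylates, differed by 0.14 and -0.03. On the higher side were ETV7 (5.65 and 6.26, 0.61), EHF, an epithelial factor (7.45 and 7.79, 0.34), ELF2 (0.29), ELF4 (0.24) and SPI1 (0.15). ELF1 (-0.12) and SPIB (-0.16) complete the group. No counted ETS gene lay between ETV5 at -1.55 and SPDEF at -0.34. The ternary complex factor genes ELK1, ELK3 and ELK4, and GABPA and ELF3, are not analysed here.

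**Figure D2:**
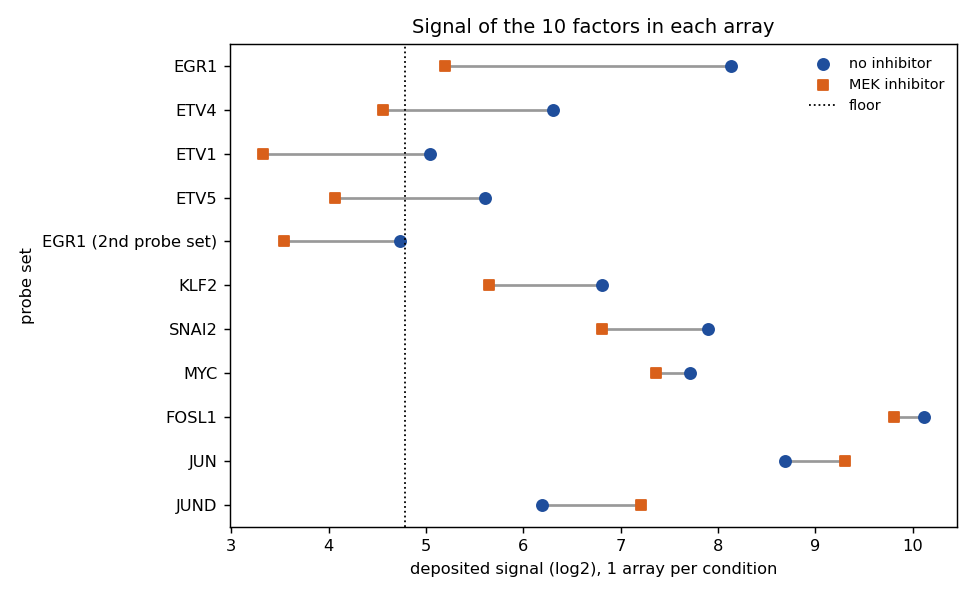
Signal of the 11 probe sets in each array (x axis, deposited log2 signal, circles without and squares with the inhibitor, dotted line at 4.78). Heights of different probe sets are not comparable, and the figure shows JUN and JUND running to the right and all others to the left, with ETV1, ETV4 and ETV5 crossing the dotted line.

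AP-1 is a dimer of JUN, FOS and ATF family proteins. Its subunit genes lay on both sides of 0, JUN-type genes included. JUND, which is generally present in resting cells, read 6.19 without and 7.21 with the inhibitor, a difference of 1.02 or 2.02-fold higher. This is just past 2-fold, and 0.99 after subtracting the median difference of all genes counted or 0.97 after subtracting a trend on the mean. Of 1666 genes of like mean, 10 were as high or higher, JUND included. JUN read 8.68 and 9.31, a difference of 0.62 or 1.54-fold higher, and 9 of 474 genes of like mean were as high or higher. JUNB, an immediate early JUN gene, went the other way, at 7.62 and 7.14 (-0.48). FOSL1, the FRA-1 gene, a late FOS family member, read 10.1 and 9.81, a difference of -0.31. It lay inside the central 95% of 205 genes of like mean, -0.79 to 0.66, and 80.7% of its signal was left. JUN, JUNB and FOSL1 all differ by less than the 0.80 seen between probe sets of 1 gene.

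FOS and FOSB were lower, and FOSL2, ATF3 and JDP2 higher. FOS read 5.56 and 5.06 (-0.50) in its brighter probe set and 4.46 and 3.55 (-0.91) in its second. FOSB read 5.33 and 4.72 (-0.60) in its brighter probe set and 4.55 and 4.52 (-0.02) in its second, so its loss rests on 1 of 2 probe sets. FOSB passed 4.78 only without the inhibitor, so it had to be lower. The second probe sets of FOS and FOSB, like that of EGR1, sit among numbers of minus-strand genes (17 of 19 and 16 of 17), whereas both genes lie on the plus strand. FOSL2, the FRA-2 gene, differed by 0.48, the stress-induced ATF3 by 0.58 and the JUN-binding repressor JDP2 by 0.68. Of the 9 AP-1 genes counted, 4 were lower and 5 higher, where 46.1% of all genes counted were lower. Taking the brighter probe set where there are 2, each except JUND differed by less than the 0.80 seen between probe sets. No AP-1 gene lay between FOSL1 at -0.31 and FOSL2 at 0.48, which are themselves less than 0.80 apart. The 6 AP-1 genes that are not among the 10 factors were 3 lower and 3 higher, none by 2-fold. The related ATF, CREB and MAF genes, 14 counted, had a median of 0.07 and none past 2-fold, with CREB5 at 0.60, ATF4 at 0.01, MAFG at -0.32 and MAFA at -0.37.

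KLF2, a Kruppel-like factor known for quiescence in endothelium and T cells and as an ERK5 target, read 6.81 without and 5.65 with the inhibitor. The difference of -1.16 is 2.24-fold lower, and 14 of 1828 genes of like mean were as low or lower. All 26 listed KLF and SP genes were named and 14 counted. The 13 besides KLF2 had a median of -0.21, with 8 lower and 5 higher and none past 2-fold. KLF16 was nearest to KLF2, at 5.96 and 5.10 (-0.85). KLF7 (-0.46), the TGF-beta-induced KLF10 (-0.33), SP6 (-0.31), KLF5, a factor of proliferating epithelium (8.07 and 7.79, -0.28), KLF3 (-0.27) and KLF14 (-0.21) followed. KLF6, an early response and stress gene, read 8.13 and 8.72 (0.59). KLF4, an epithelial differentiation factor, read 5.98 and 5.99 (0.01), a sign that turns under both scalings, as that of SP4 (0.03) does with the trend subtracted. SP1, SP3 and SP2 differed by -0.08, 0.04 and 0.20. The S1P receptor gene S1PR1, a KLF2 target, was below 4.78 in both arrays. Thrombomodulin (THBD), another KLF2 target, read 6.18 and 5.26 (-0.92). Of 9 listed KLF2 targets, 5 were named and 2 counted. The other one counted was KLF4, at 0.01, so 1 was lower and 1 higher.

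**Figure D3:**
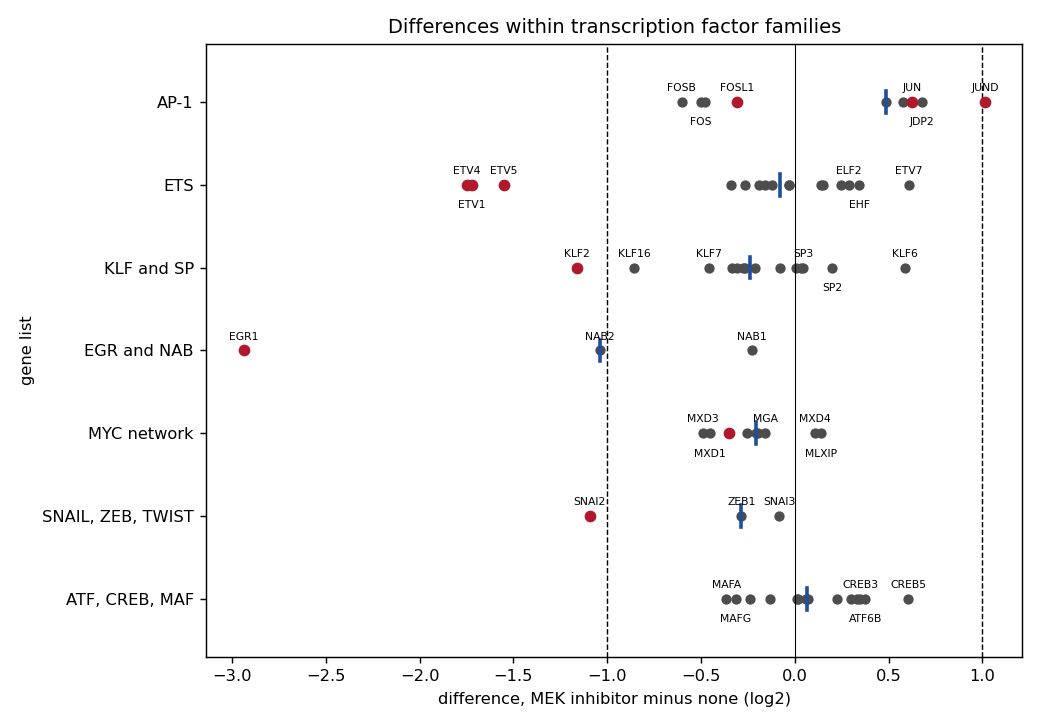
Differences (x axis, log2, MEK inhibitor minus none) of the genes counted in each of 7 factor families (y axis), with the 10 factors in red, other genes in grey, a blue bar at each family's median and dashed lines at 2-fold. ETV1, ETV4 and ETV5 sit apart from the other ETS genes, which lie between -0.34 and 0.61, and the AP-1 genes lie on both sides of 0.

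SNAI2 (Slug), a zinc finger repressor of epithelial genes, read 7.90 without and 6.80 with the inhibitor, a difference of -1.09 or 2.13-fold lower. Of 1425 genes of like mean, 16 were as low or lower. Its relative SNAI1 (4.45 and 4.18) stayed below 4.78, as did ZEB2, TWIST1 and TWIST2. ZEB1, another repressor of epithelial genes, differed by -0.29 and SNAI3 by -0.08. Genes that SNAI2 is known to repress differed either way: of 13 counted, 8 were higher and 5 lower, none by 2-fold. Of all genes counted, 46.1% were lower. The 13 had a median of 0.17 against 0.03 over all genes counted. The highest were the claudin genes CLDN4 (4.90 and 5.85, 0.95) and CLDN3 (7.92 and 8.86, 0.93) and the desmocollin gene DSC2 (0.85). The tight junction gene OCLN differed by 0.37. The 5 lower ones were KRT18 (-0.29), KRT8 (-0.19), CLDN1 (-0.16), KRT19 (-0.07) and TJP3 (-0.04). CDH1, the classic target, is not analysed here.

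MYC, a growth regulator downstream of many mitogens, read 7.72 and 7.36, a difference of -0.35, with 78.3% of its signal left. It lay inside the central 95% of 1315 genes of like mean (-0.63 to 0.68), and 117 of them were as low or lower. The other 8 genes counted of its network of dimer partners and antagonists had a median of -0.20 and none past 2-fold. The obligate partner MAX read 6.79 and 6.58 (-0.21). The antagonist genes MXD1 and MNT differed by -0.45 and -0.26. MXD3 differed by -0.49 in its brighter probe set and by -0.01 in its second. Of 14 MYC target genes counted, 11 were lower, none by 2-fold, with a median of -0.30. Over all genes counted, 46.1% were lower. HSPD1, a mitochondrial chaperonin, differed by -0.70, the nucleolar genes FBL and BOP1 by -0.68 each and NCL by -0.59, whereas ODC1 differed by 0.29. The second probe set of BOP1 differed by -0.28.

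**Figure D4:**
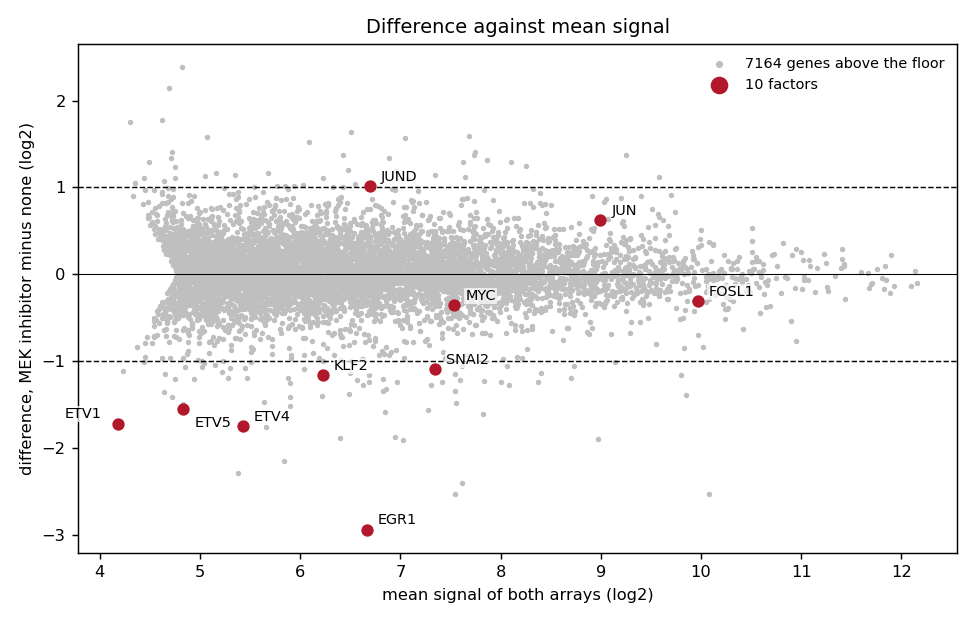
Difference (y axis, log2, MEK inhibitor minus none) against the mean signal of both arrays (x axis, log2) for 7164 genes in grey and the 10 factors in red, with dashed lines at 2-fold. EGR1 is the lowest point, while MYC and FOSL1 lie inside the grey cloud.

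Genes known to lie downstream of these factors differed unevenly. The 10 genes of a published readout of MAPK pathway output include ETV4 and ETV5. The 7 others counted were all lower, against 46.1% of all genes counted. At least 2-fold lower were 4 of them, against 1.05% of all: SPRY4 (-2.15), DUSP4 (-1.88), DUSP6 (-1.26) and SPRY2 (-1.002). These encode feedback inhibitors of the cascade. SPRY4 and SPRY2 passed 4.78 only without the inhibitor. EPHA2, EPHA4 and CCND1 differed by -0.67, -0.38 and -0.14. Of 19 listed AP-1 targets, 13 were named on the array, and 5 of these stayed below 4.78. Among the 8 counted, 7 were lower and 2 at least 2-fold lower, against 46.1% and 1.05% of all genes counted. Their median was -0.51, and it was -0.24 without the filter. The 2 were the collagenase gene MMP1 (11.3 and 8.81, -2.53) and the osteopontin gene SPP1 (8.62 and 7.02, -1.60). HMGA1, a chromatin protein gene, differed by -0.77 and -0.61 in its 2 probe sets. The protease inhibitor gene TIMP1 differed by -0.64 and EZR, for ezrin, by 0.23. The PEA3 target list shares MMP1, SPRY4 and DUSP6 with these lists. Its other 5 genes were VIM (-0.39, and -0.61 and -0.85 in its other probe sets), MMP14 (0.28), CCND3 (0.49), the chemokine receptor gene CXCR4 (0.76) and the adhesion receptor gene ICAM1 (7.08 and 8.20, 1.12).

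EGR1 targets lay on both sides of 0: of 8 counted, NAB2, GDF15 (-0.28) and NAB1 were lower, and 5 were higher. The higher ones were ICAM1, ATF3, the growth factor genes PDGFB (0.42) and PDGFA (0.35) and the heparanase gene HPSE (0.33). Several of these genes answer to other factors too. Other immediate early genes were likewise mixed, with a median of -0.09 over 12 counted, 7 lower and 5 higher. TRIB1, a pseudokinase that guides the ubiquitin ligase COP1, differed by -1.13, MCL1 by -0.61 and IER2 by -0.60, while PLK2 differed by 0.83, RHOB by 0.51 and the phosphatase gene DUSP1 by 0.27.

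**Figure D5:**
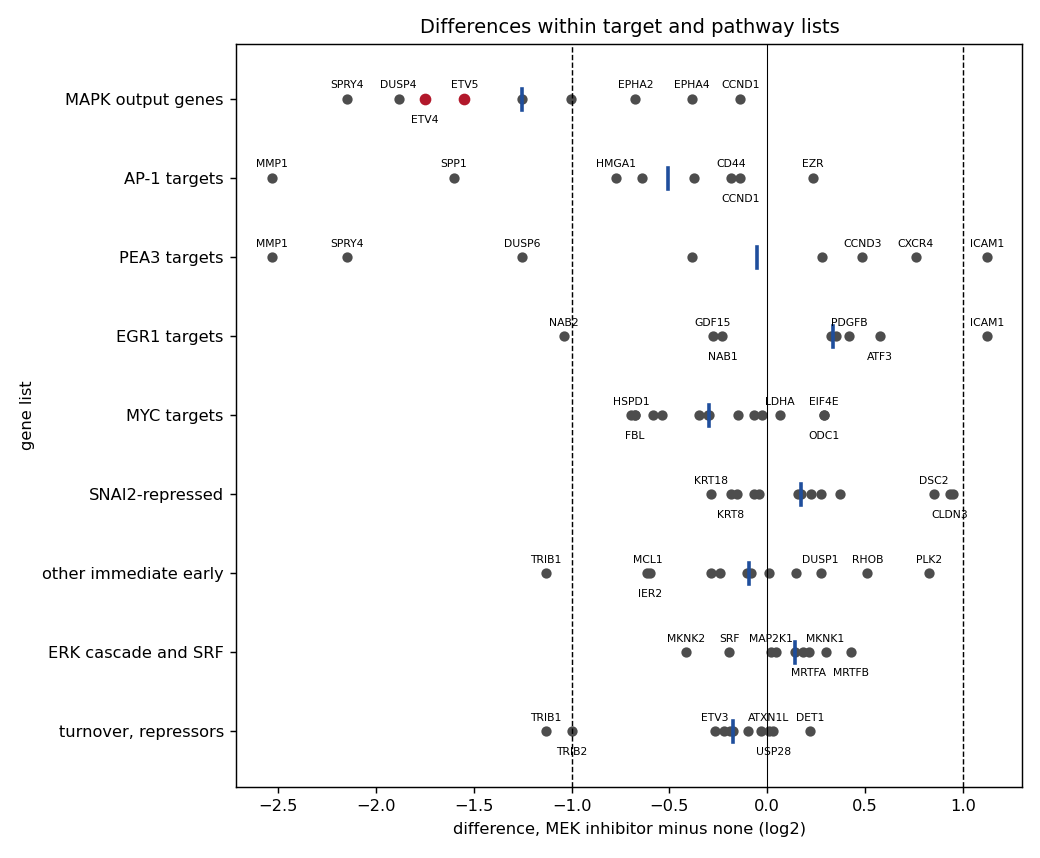
Differences (x axis, log2, MEK inhibitor minus none) of the genes counted in 9 target and pathway lists (y axis), with ETV4 and ETV5 in red, a blue bar at each median and dashed lines at 2-fold. MAPK output genes are all below 0, while EGR1 and PEA3 targets lie on both sides.

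The RNAs of the machinery that acts on these factors mostly differed by less than 2-fold, as did most genes counted. Of all genes counted, 1.05% were at least 2-fold lower and 0.628% at least 2-fold higher. Of 9 counted genes for the ERK cascade, SRF and its cofactors, none was past 2-fold. Their median was 0.14, against 0.03 over all genes counted. SRF read 7.56 and 7.36 (-0.20). MRTFB and MRTFA, SRF coactivators, differed by 0.43 and 0.21, and MKNK2, the gene of a MNK kinase downstream of ERK, by -0.42. Among 11 genes for repressors and turnover of these factors, only TRIB1 was past 2-fold. TRIB2 differed by -0.998 and by 0.06 in its 2 probe sets. CIC, the repressor of PEA3 genes that ERK relieves, read 5.85 and 5.68 (-0.17), DET1, a COP1 partner, differed by 0.22, and the cofactor of CIC, ATXN1L, by 0.01, with a sign that turns under both scalings.

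No counted genome neighbour of the factors was past 2-fold, where 1.05% of all genes counted were lower and 0.628% higher by that much. The nearest genes on either side of the 10 factors that are named on the array, 20 in all, included 10 counted. Their differences ran from -0.28 (GDF15, beside JUND) to 0.57 (SCIN, beside ETV1), with 2 lower and 8 higher. SCIN, and CCDC85B beside FOSL1, passed 4.78 only with the inhibitor, so these genes had to be higher. OMA1, beside JUN, passed in each array and also differed by 0.57. HSPA9, beside EGR1, read 11.3 and 11.2 (-0.14). JUN-DT, a divergent transcript beside JUN, was below 4.78 in both arrays (3.25 and 3.04). By RefSeq gene length, JUND (1929 bases) and JUN (3257), the higher genes, are the 2 shortest of the 10. EGR1 (3825), SNAI2 (3832) and KLF2 (3860) come next, then MYC (7518) and FOSL1 (8497). ETV4 spans 18495 bases, ETV5 62776 and ETV1 100197. The part of gene length in the differences was not tested.

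In the order of differences over the 7164 genes, EGR1 was the lowest and MMP1 came next. ETV4 and ETV1 held places 12 and 13 from the lowest and were neighbours, between HMGA2 (-1.76) and SPP1 (-1.60). ETV5 was at place 17, between LCN2 (-1.56) and FOXL1 (-1.51). KLF2 was at place 51, between ANXA2 and SULF2, both at -1.16. SNAI2 was at place 60, between SUMO4 (-1.12) and TLR4 (-1.09). From the highest, JUND was at place 42, between GSG1 (1.01) and SLC66A3 (1.02), and JUN at place 276. MYC was at place 719 and FOSL1 at place 905 from the lowest. Each of these likenesses rests on 1 difference between 2 arrays, and apart from EGR1 and MMP1, which are 0.41 apart, the neighbours named here differ by less than the median gap of 0.16 between probe sets.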

How the data were processed

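Total RNA of 2 cultures was measured on Affymetrix whole-transcript arrays, 1 per condition, and grouped by sample title. The values the authors deposited are log2 probe set signals. The log2 scale is inferred from the values (1.16 to 13.4), and every fold assumes it. Affymetrix Expression Console 1.3 was used, per the submitters' processing notes, and its settings were not stated. Array medians were 3.49 without and 3.46 with the inhibitor, so values were used as deposited. Bringing arrays to like quantiles would hide a change in total RNA output. With 1 array per condition the precision is unknown, and no scanner signals were used. Of 53617 probe sets, 16098 had a gene symbol in the platform annotation, and all of their Entrez identifiers matched RefSeq. Small RNA probe sets (1287) were left out. The probe set with the highest mean stood for a gene, and genes whose higher value reached the median gene mean of 4.78 were counted. Fold changes were taken as differences of log2 values, and no test was run. Named genes are the 10 factors, family genes counted, and up to 4 per other list. A few outside that rule (targets, genome neighbours, genes below 4.78) were named after their values were seen. Members and lists were chosen with earlier results of these data known. The computation was tested on simulated data. Python 3.11.15, numpy 2.4.6, pandas 2.3.3, statsmodels 0.14.6 and matplotlib 3.10.9 were used.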

Additional observations from a re-analysis of the deposited data

How the results depend on the processing

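No paired analysis was possible because each condition has 1 array, and no array could be left out. The count of factors at least 2-fold lower stayed at 6 under both scalings, with averaged probe sets and without the filter. It was 3 with the 75th percentile filter, which drops ETV1, ETV4 and ETV5, and 3 at a 3-fold threshold. The count of factors at least 2-fold higher (JUND alone) became 0 after centring on the median gene or removing a loess trend and 0 at 3-fold, and was 2 at 1.5-fold. Over all genes, 258 were lower and 331 higher at 1.5-fold, and 14 and 6 at 3-fold. The 75th percentile filter left 24 higher. EGR1 read -2.06 as the average of its probe sets, place 6 from the lowest in place of 1, and -1.19 in the second alone. Medians of the AP-1, ETS and KLF lists moved by less than 0.16, the median disagreement between probe sets, under each scaling, probe set and filter alternative. Among other lists, 4 of 63 medians moved by more: AP-1 targets (-0.24) and the EGR and NAB list (-0.19) without the filter, and immediate early genes (-0.29) and PEA3 targets (-0.39) with the 75th percentile filter. No called value reversed. The number of arrays limits the precision of every value.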
